A study of Homo sapiens with 9 samples.

Results

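Cells of the human monocytic leukaemia line THP-1 given ectosomes of the hepatoma line Huh7 carrying a scramble shRNA were set against THP-1 cells without ectosomes, over all measured genes. The 6 libraries were taken by their labels from the study's 9 RNA-seq libraries. The 3 control libraries are labelled Ctrl in the shRNA field and name no agent. The 3 scramble-ectosome libraries are labelled Scramble in that field and name ectosomes as the agent. The remaining 3 libraries, of cells given PKM2-knockdown ectosomes, only added to the estimate of the spread between replicates. The scramble shRNA was read as carried by the Huh7 cells that shed the ectosomes. How the ectosomes were prepared, at which dose they were given and for how long is not stated in the sources used here. Of 30000 rows of the count table, 18437 had enough reads to be tested.

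Ectosomes are vesicles that bud outward from the plasma membrane and carry proteins, lipids and RNA of the cell that sheds them to a recipient cell. THP-1 cells resemble immature monocytes, divide in suspension, keep granule genes of the myeloid progenitor, and take on macrophage features when stimulated. Monocytes that take up tumour vesicles are known to secrete cytokines, and secretion draws on the folding and transport machinery of the endoplasmic reticulum (ER).

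Monocyte markers were expressed in both groups, though not all of them. Of 16 listed monocyte and macrophage markers 15 could be tested, and their summed level was 1947, 1856 and 1514 CPM (counts scaled to a common library size) in control replicates 1, 2 and 3 and 2129, 2264 and 2240 CPM with scramble ectosomes. Among them, 5 rose and 7 fell. PTPRC had 292, 296 and 206 CPM in the controls and 559 to 582 CPM with ectosomes. LYZ had 136, 131 and 342 CPM in the controls and 17.1 to 18.1 CPM with ectosomes. CD14 had 7.57, 6.54 and 0.442 CPM in the controls and 6.04 to 6.37 CPM with ectosomes. CD68 reached at most 0.639 CPM and FCN1 at most 6 reads in any library. Of 21 hepatocyte and hepatoma markers 14 were in the table, and they summed to between 17.9 and 21.7 CPM in control cells and between 11.6 and 12.7 CPM with scramble ectosomes. GPC3, at 13.6, 12.6 and 13.9 CPM in the controls and 2.03 to 3.26 CPM with ectosomes, was lower, while the other 13 summed to 5.49, 9.17 and 4.03 CPM in the controls and 9.44 to 9.61 CPM with ectosomes. HNF4A and TTR had reads only with ectosomes, at most 5 per library. Their part in the results was not tested. ALB, which encodes albumin, had 7 reads over the controls and 7 with ectosomes. The T cell list, with 4 of its 7 markers in the table, summed to 91.5, 93.2 and 9.16 CPM in the controls and 284 to 295 CPM with ectosomes. IL7R held 86.0, 87.6 and 7.01 CPM of that in the controls, the T cell receptor gene TRAC most of the rest, and the defining markers CD3E and LCK had at most 5 reads in any library. The endothelial and fibroblast list, with 8 of 9 in the table, summed to 377, 367 and 201 CPM and to 652 to 710 CPM with ectosomes, of which PECAM1, which monocytes also express, was nearly all, while KDR had 1 read in each control and none with ectosomes. In control replicates 1, 2 and 3 COL3A1 had 0, 1 and 35 reads and COL1A2 had 0, 3 and 28. With ectosomes these 2 collagen genes had 2 to 12 reads per library. COL1A1 had 14, 30 and 27 control reads. In bulk RNA, fewer cells expressing a gene and less RNA per cell cannot be told apart.

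The totals ran from 17744587 to 23864381 counts per library. Control replicate 3 differed from its 2 fellow controls. Relative to their mean, 234 genes lay at 2-fold or more above in it and 995 at 2-fold or more below, where control replicate 2 relative to 1 gave 36 and 33. In a principal component analysis of the 6 libraries, the treatments separated on the first axis (86.2% of the variance) and control replicate 3 from the other controls on the second (7.94%). Where 3 control levels follow each other, they are those of control replicates 1, 2 and 3 in that order, and a level with ectosomes is the range over the 3 scramble-ectosome libraries. Whether the replicates were separate cultures is not stated, and the p-values rest on nothing more than a spread from library to library that may be technical.

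Scramble ectosomes were accompanied by a change of most of the transcriptome. Of the 18437 genes, 6377 (34.6%) rose and 6115 (33.2%) fell, at a Benjamini-Hochberg adjusted p under 0.05 in edgeR's quasi-likelihood test on TMM-scaled counts. At least 2-fold changes were called for 3335 genes (18.1%) upward and 3413 (18.5%) downward, and at least 4-fold changes for 1478 (8.02%) and 1297 (7.03%). Without control replicate 3 the calls numbered 6884 higher (37.3%) and 6524 lower (35.4%), and no called gene changed direction. Scaling by library totals alone, which shifted the overall median log2 fold change from -0.01 to -0.21, gave 5129 higher and 7630 lower, so that 40.2% and not 51.0% of calls were upward. For 3373 genes (18.3%), the closest libraries of the 2 groups lay at least 2-fold apart, 1872 higher (10.2%) and 1501 lower (8.14%), a count that cannot rest on 1 control library. With a call for 67.8% of all genes, the counts of each class are read against these shares. The groups did not overlap for 13146 genes (71.3%). Many of the genes named below were picked by a rule that required this, so for them it is no added support.

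Protein-coding genes rose more often than they fell, and non-coding genes and pseudogenes fell more often than they rose. Of 13666 protein-coding genes 5275 rose and 4548 fell. Of 2911 long non-coding RNA genes 704 rose and 962 fell, and of 614 transcribed and unprocessed pseudogenes 131 rose and 247 fell. Scaled by library totals alone, protein-coding genes also fell more often, 5746 against 4239. The number of genes at 1 CPM or more was 14771, 14882 and 14286 in control replicates 1 to 3 and between 14719 and 14764 with ectosomes, so the breadth of the transcriptome stayed close to that of control replicates 1 and 2 and above that of control replicate 3.

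A small set of genes went from silence to expression or back. Every control library was under 0.1 CPM and every scramble-ectosome library at 1 CPM or more for 66 genes, 35 of them protein-coding, and the reverse held for 25 genes, 9 of them protein-coding. MUC13, a membrane mucin of epithelia, had 0 reads over the 3 controls and 876 with ectosomes, at least 283-fold higher against a floor of 3 counts over the group. The protease inhibitor gene SERPINB7 was at least 185-fold higher, the kinase gene ALPK2 at least 155-fold and CSF2, which encodes the colony-stimulating factor GM-CSF, at least 92.1-fold. The same floor gave at least 76.9-fold for IL2RA, the high-affinity receptor chain for interleukin 2, and at least 61.1-fold for IL36G, an interleukin 1 family cytokine. With 1 to 3 control reads, the ratio was 371-fold (exact 95% interval 66.2 to 14702) for the Wnt agonist RSPO3 and 172-fold (exact 95% interval 58.6 to 838) for the drug efflux pump ABCB1. The single control read of RSPO3 was in control replicate 3, and its fitted fold went from 269 to 1014 without that library, while that of ABCB1 went from 154 to 258 without control replicate 2. In the other direction, RHEX, a regulator of erythropoietin signalling, had 197 control reads and none with ectosomes, at least 67.7-fold lower. These floors and intervals cover counting error only.

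**Figure D1:**
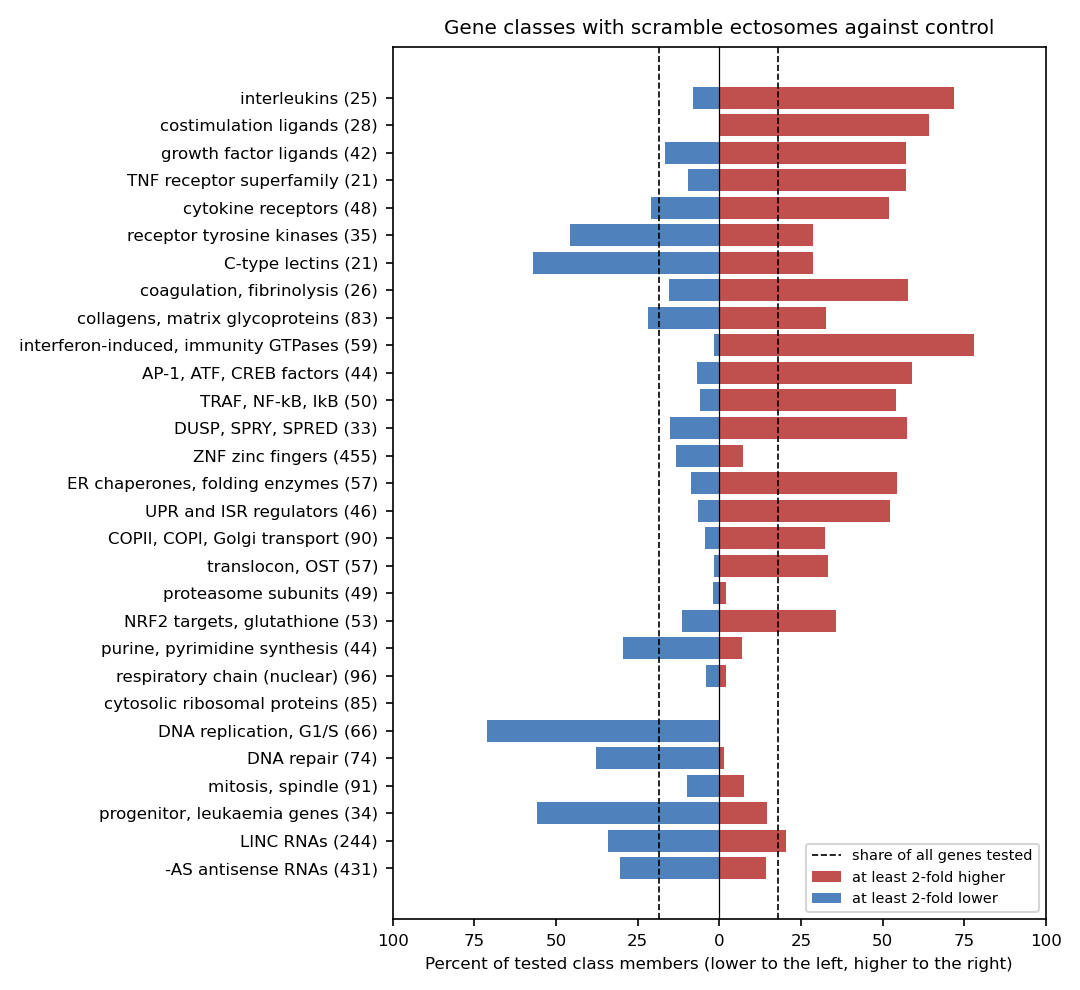
Share of tested members of 29 gene classes (rows, number tested in brackets) that passed the test and changed at least 2-fold with scramble ectosomes, higher to the right and lower to the left, in percent. Dashed lines mark the shares over all 18437 genes, 18.1% and 18.5%. Interferon-induced genes and interleukins reach farthest to the right, and DNA replication genes farthest to the left.

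In the plot of class shares, the classes farthest from the shares of all genes included secreted ligands and their receptors, ER folding genes and interferon-induced genes on the higher side and DNA replication genes on the lower side. Classes were built from symbol families or hand-written pathway lists, and no test of a class as a set was made. In all 108 classes were built, of which a chosen 29 are plotted, so the extremes named are those of the plot. Of the classes not plotted, macrophage polarization markers outside the cytokines had 24 of 44 members at least 2-fold higher and 10 lower.

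Growth factor genes were more often higher than lower. Among growth factor ligands, 26 of 42 tested members rose and 11 fell (26 and 11 without control replicate 3), with a median log2 fold change of 1.76. The class median of control replicate 3 lay -0.28 (log2) from the mean of the other controls. GDF15 (chromosome 19, 18374731 to 18389176, plus strand, GRCh38), a stress-induced member of the TGF-beta superfamily, stood at 2.72 and 3.06 CPM in control replicates 1 and 2, 0.276 CPM in control replicate 3 and 293, 333 and 333 CPM with scramble ectosomes. The groups were far apart, and control replicate 3 was the lowest library. GDF15 rose 153-fold (log2 fold change 7.26, SE 0.40, adjusted p = 7.56e-08, and 6.78 without control replicate 3). VEGFA, the main growth factor of blood vessels, was already abundant in control cells and rose 4.95-fold (adjusted p = 8.81e-05), from 492, 500.4 and 165 CPM to between 1886 and 1928 CPM. HBEGF, a ligand of the EGF receptor, rose 27.2-fold (adjusted p = 5.06e-07), from 12.9, 10.3 and 3.31 CPM to between 238 and 249 CPM. TGFB1, which restrains inflammation and builds matrix, rose 3.07-fold (adjusted p = 0.000918), from 107, 86.9 and 33 CPM to between 213 and 251 CPM. All 3 of these were lowest among the controls in control replicate 3. In none did the groups overlap, which held for 71.3% of all genes. Lower were GAS6, a ligand of receptors that take up dying cells, which fell 3.34-fold (adjusted p = 1.08e-06), from 49.2, 41.4 and 62.9 CPM to between 14.8 and 15.8 CPM, and BMP8B, a bone morphogenetic protein, which fell 3.51-fold (adjusted p = 3.01e-08), from 412, 368 and 437 CPM to between 111 and 121 CPM. In both of these control replicate 3 was the highest library. BMP8B overlaps PPIE on the opposite strand, and strand was not known to be kept, so their reads may mix. Among complement components and regulators, 16 of 26 tested members rose and 6 fell (16 and 7 without control replicate 3), with a median log2 fold change of 1.07. The central component C3 rose 4.26-fold (adjusted p = 0.000415), from 23.9, 23.6 and 5.91 CPM to between 73.8 and 78.5 CPM, and CFD, the protease of the alternative pathway, fell 3.63-fold (adjusted p = 1.26e-06), from 251, 186 and 170.0 CPM to between 52.6 and 61.5 CPM. Both lay lowest among the controls in control replicate 3, which was far below the others for C3.

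Receptor genes changed in both directions. For the TNF receptor superfamily, of 21 members tested, 16 rose and 2 fell, 12 and 2 of them by at least 2-fold, with a median log2 fold change of 1.64 (1.14 without control replicate 3). TNFRSF18, the costimulatory receptor GITR, stood at 0.639 and 0.215 CPM in control replicates 1 and 2, 0.0552 CPM in control replicate 3 and 62.9, 50.3 and 58.3 CPM with scramble ectosomes. It rose 187-fold (log2 fold change 7.55, SE 0.30, adjusted p = 8.85e-09, and 7.12 without control replicate 3) from 18 control reads in all, and 379-fold without control replicate 1. For costimulation and checkpoint ligands, of 28 members tested, 20 rose and 1 fell, 18 and 0 of them by at least 2-fold, with a median log2 fold change of 1.98 (2.08 without control replicate 3). In that class 3 and not 1 fell without control replicate 3. CD80, which delivers the second signal to T cells, rose 36-fold (adjusted p = 1.26e-06), from 1.23, 0.646 and 0 CPM to between 22.3 and 23.7 CPM (62.8-fold without control replicate 1). CD274, the checkpoint ligand PD-L1, rose 39.4-fold (adjusted p = 7.56e-08), from 0.479, 0.947 and 0.166 CPM to between 20.4 and 23.8 CPM (67.2-fold without control replicate 2). Among the controls, these 3 genes were lowest in control replicate 3, and every scramble-ectosome library stood above every control. Groups without overlap were found for 71.3% of all genes.

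Receptor tyrosine kinases split. Of the class, 13 of 35 tested members rose and 17 fell (13 and 16 without control replicate 3), with a median log2 fold change of 0.23, although scaled by library totals alone 11 rose and 17 fell (median 0.02), and the median was -0.09 without control replicate 3. MET (chromosome 7, 116672390 to 116798386, plus strand), the receptor of hepatocyte growth factor, stood at 0.107 and 0.344 CPM in control replicates 1 and 2, 0.11 CPM in control replicate 3 and 31.5, 31.8 and 30.3 CPM with scramble ectosomes. The control libraries held 12 reads of it in all, and control replicate 3 lay between the others. MET rose 152-fold (log2 fold change 7.25, SE 0.23, adjusted p = 2.35e-09, and 7.0 without control replicate 3), or 272-fold without control replicate 2. RET (chromosome 10, 43077027 to 43130351, plus strand), the receptor of the GDNF family, stood at 599.6 and 552 CPM in control replicates 1 and 2, 483 CPM in control replicate 3 and 21.3, 20.9 and 20.7 CPM with scramble ectosomes. The lowest control for RET was control replicate 3, still far above every scramble-ectosome library. RET fell 26-fold (log2 fold change -4.70, SE 0.10, adjusted p = 3.99e-10, and -4.78 without control replicate 3). FLT3, the receptor through which early myeloid cells receive growth signals, fell 9.88-fold (adjusted p = 1.83e-06), from 30.1, 29.4 and 55.6 CPM to between 3.2 and 5.27 CPM, with control replicate 3 the highest. NRP1, a coreceptor for semaphorins and VEGF, rose 66.3-fold (adjusted p = 5.91e-07), from 10.1, 8.44 and 1.6 CPM to between 433 and 457 CPM, with control replicate 3 the lowest.

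Among interleukin and colony-stimulating factor receptors, 26 of 48 tested members rose and 11 fell (26 and 13 without control replicate 3), with a median log2 fold change of 1.03. CRLF2, the receptor of thymic stromal lymphopoietin, rose 64.6-fold (adjusted p = 3.91e-09), from 2.82, 1.55 and 1.21 CPM to between 117 and 126 CPM. CSF3R, the receptor of the granulocyte factor G-CSF, fell 5.04-fold (adjusted p = 2.02e-09), from 170.3, 172 and 169 CPM to between 33.4 and 34.8 CPM, and its 3 controls lay close together. C5AR1, the receptor of the complement peptide C5a, rose 33.1-fold (adjusted p = 5.12e-07), from 4.0, 3.62 and 0.607 CPM to between 88.2 and 98.7 CPM. F2RL3, a thrombin receptor of the protease-activated family, rose 71.7-fold (adjusted p = 3.07e-07), from 3.78, 3.19 and 0.276 CPM to between 174 and 179 CPM. S1PR5, a sphingosine 1-phosphate receptor, fell 23-fold (adjusted p = 2.84e-08), from 11.8, 10.6 and 13.5 CPM to between 0.369 and 0.632 CPM. The groups did not overlap for any of the 5, which the rule that picked them required and which held for 71.3% of all genes. CRLF2, CSF3R, C5AR1 and F2RL3 were lowest among the controls in control replicate 3, and S1PR5 was highest there.

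C-type lectins, which bind sugars on microbes and cells, were mostly lower: of 21 members tested, 7 rose and 12 fell, 6 and 12 of them by at least 2-fold, with a median log2 fold change of -1.74 (-1.53 without control replicate 3). CLEC11A, a secreted lectin that supports growth of blood progenitors, stood at 850.0 and 745 CPM in control replicates 1 and 2, 1044 CPM in control replicate 3 and 71.1, 80.1 and 79.2 CPM with scramble ectosomes. The highest of the 6 libraries was control replicate 3. CLEC11A fell 11.5-fold (log2 fold change -3.52, SE 0.14, adjusted p = 8.6e-09, and -3.38 without control replicate 3). CLEC12A, an inhibitory receptor of myeloid cells, fell 16-fold (adjusted p = 1.87e-06), from 7.88, 8.95 and 16.8 CPM to between 0.542 and 0.815 CPM. In contrast CLEC5A, an activating receptor of macrophages, rose 40.9-fold (adjusted p = 2.28e-07), from 0.852, 0.56 and 0.0552 CPM to between 18.8 and 21.6 CPM. Sensors of nucleic acids and microbes in the Toll-like, NOD-like and RIG-I-like families were mixed, as 17 of 33 tested members rose and 9 fell (18 and 10 without control replicate 3), with a median log2 fold change of 0.74. TMEM173, which encodes the DNA-sensing adaptor STING, had 312 and 294 CPM in control replicates 1 and 2, 329 CPM in control replicate 3 and 31.6, 33.3 and 30.8 CPM with scramble ectosomes. Its controls lay within a narrow span, with control replicate 3 the highest, and it fell 9.77-fold (log2 fold change -3.29, SE 0.08, adjusted p = 4.9e-10, and -3.25 without control replicate 3). FCGR1A, the high-affinity Fc receptor for immunoglobulin G, fell 4.88-fold (adjusted p = 8.24e-09), from 69.5, 77.5 and 66.1 CPM to between 14 and 15.3 CPM. FCGR1A has near-identical copies, with which its reads may have been exchanged.

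**Figure D2:**
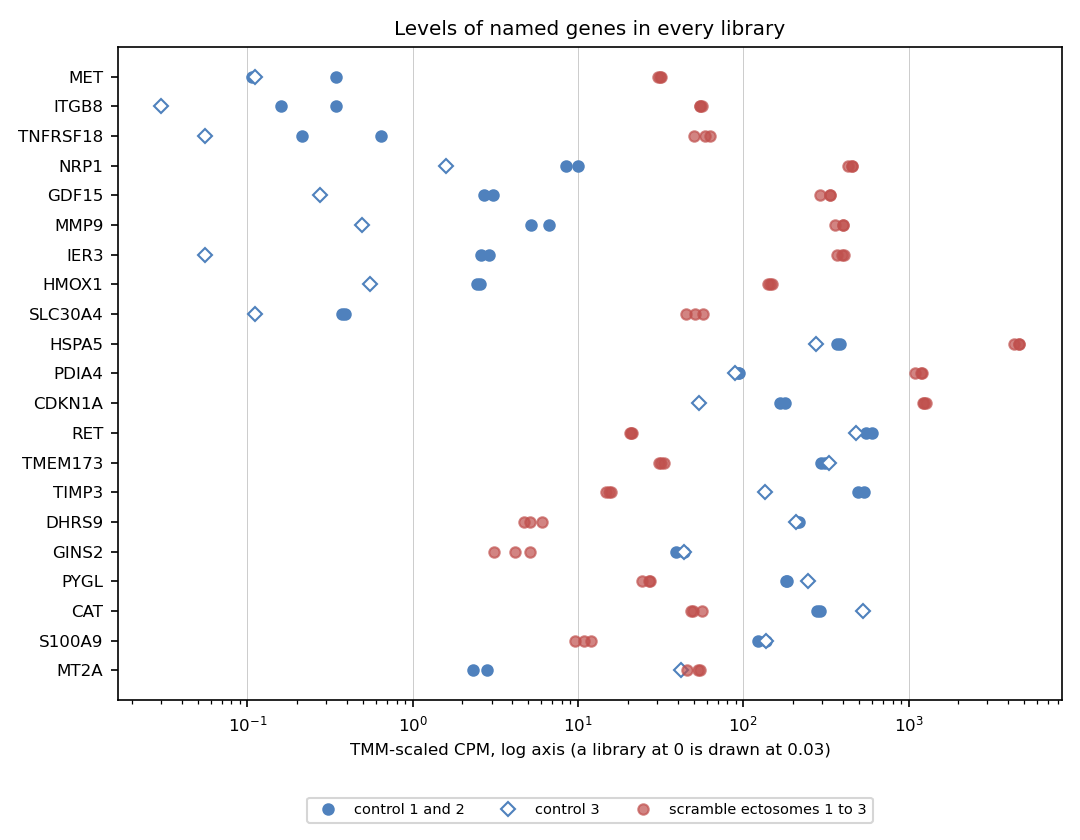
Level of 21 named genes (rows) in each of the 6 libraries, as TMM-scaled CPM on a log axis, a library at 0 being drawn at 0.03. Filled blue circles are control replicates 1 and 2, open diamonds control replicate 3, and red circles the 3 scramble-ectosome libraries, which lie within a narrow span for every gene. Among these genes, control replicate 3 lies next to the scramble-ectosome libraries only for MT2A, at 42.0 CPM against 2.82 and 2.32 CPM in the other controls.

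Levels in every library, plotted for 21 named genes, show that the place of control replicate 3 varied from gene to gene. For MET, RET and PDIA4 it lay close to the other controls. For IER3, GDF15, MMP9 and NRP1 it lay below them on the far side from the scramble-ectosome libraries. For CAT and PYGL it lay above them, also on the far side, and for TIMP3 below them on the side of the treated cells. For the metallothionein MT2A it lay just below the treated cells.

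Adhesion genes changed without a common direction. For integrins and their adaptors, of 35 members tested, 18 rose and 11 fell, 14 and 6 of them by at least 2-fold, with a median log2 fold change of 0.70 (0.39 without control replicate 3). ITGB8, the integrin chain that releases active TGF-beta, stood at 0.16 and 0.344 CPM in control replicates 1 and 2, 0 CPM in control replicate 3 and 54.9, 55 and 56.1 CPM with scramble ectosomes. The control libraries held 11 reads in all, none of them in control replicate 3. ITGB8 rose 294-fold (log2 fold change 8.20, SE 0.28, adjusted p = 4.04e-09, and 7.69 without control replicate 3), or 632-fold without control replicate 2. NRCAM, a neuronal cell adhesion molecule, rose from 6 reads over the controls to between 28.0 and 28.3 CPM (264-fold by the fit, adjusted p = 8.65e-09), and 515-fold without control replicate 1 or 167-fold without control replicate 2. ICAM1, the ligand of leukocyte integrins, rose 29.7-fold (adjusted p = 0.0001), from 28.8, 30.5 and 1.38 CPM to between 589 and 619 CPM, and without control replicate 3 the rise was 20.4-fold. ITGA7, a laminin receptor chain, fell 11-fold (adjusted p = 3.72e-08), from 26, 25.4 and 19.2 CPM to between 1.79 and 2.48 CPM.

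For collagens, laminins and matrix glycoproteins, of 83 members tested, 40 rose and 20 fell, 27 and 18 of them by at least 2-fold, with a median log2 fold change of 0.43 (0.37 without control replicate 3). TNC, the matrix protein tenascin C of wounds and tumours, rose from 14 reads over the controls, none in control replicate 3, to between 28.0 and 28.3 CPM (log2 fold change 6.89, adjusted p = 4.39e-08). The cartilage collagen chains COL9A2 and COL9A3 were lower. COL9A2 fell 2.98-fold (adjusted p = 7.03e-07), from 1693, 1636 and 1220.4 CPM to between 491 and 522 CPM. COL9A3 fell 18.5-fold (adjusted p = 5.95e-09), from 50.7, 48.9 and 42.4 CPM to between 1.9 and 3.02 CPM. THBS4, a thrombospondin of tendon and muscle, fell 32.4-fold (adjusted p = 2.16e-05), from 10.1, 11.1 and 39.3 CPM to between 0.542 and 0.671 CPM, and the fall was 17.1-fold without control replicate 3, which was the highest library.

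A matrix-degrading enzyme rose and an inhibitor of such enzymes fell. MMP9, the gelatinase of migrating leukocytes, stood at 6.71 and 5.17 CPM in control replicates 1 and 2, 0.497 CPM in control replicate 3 and 361, 402 and 403 CPM with scramble ectosomes. It was lowest in control replicate 3, and the groups were far apart. MMP9 rose 93-fold (log2 fold change 6.54, SE 0.51, adjusted p = 1.03e-06, and 6.05 without control replicate 3). TIMP3, a matrix-bound inhibitor of metalloproteinases, stood at 539 and 497 CPM in control replicates 1 and 2, 135 CPM in control replicate 3 and 15.8, 14.7 and 15.4 CPM with scramble ectosomes. Here too control replicate 3 was the lowest control, on the side of the treated cells, yet above all of them. TIMP3 fell 25.5-fold (log2 fold change -4.67, SE 0.44, adjusted p = 4.15e-06, and -5.08 without control replicate 3). The whole family was even, as 17 of 41 tested members rose and 16 fell (17 and 20 without control replicate 3), with a median log2 fold change of -0.01, although scaled by library totals alone 16 rose and 17 fell (median -0.22). PLAUR, the receptor that gathers urokinase at the cell surface, rose 8.71-fold (adjusted p = 5.73e-06), from 48.7, 50.5 and 17.6 CPM to between 324 and 353 CPM, and among coagulation and fibrinolysis genes, 15 of 26 tested members rose and 6 fell (15 and 6 without control replicate 3), with a median log2 fold change of 1.41.

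Calcium-binding S100 proteins and annexins went both ways, as 9 of 25 tested members rose and 8 fell (10 and 11 without control replicate 3), with a median log2 fold change of -0.17, although scaled by library totals alone 9 rose and 9 fell (median -0.38). The counts with all 3 controls are near the shares of all genes, of which 34.6% rose and 33.2% fell. ANXA8, an annexin with near-identical copies, fell 48.8-fold (adjusted p = 2.06e-09), from 86.7, 82.2 and 58.8 CPM to between 1.49 and 1.63 CPM, with control replicate 3 the lowest control. S100A9, a subunit of calprotectin, stood at 138 and 122 CPM in control replicates 1 and 2, 137 CPM in control replicate 3 and 9.57, 12.1 and 10.9 CPM with scramble ectosomes. The 3 controls lay close together and far above the treated cells. S100A9 fell 12.2-fold (log2 fold change -3.61, SE 0.17, adjusted p = 2.97e-08, and -3.59 without control replicate 3). Its partner S100A8 fell 13.6-fold (adjusted p = 3.26e-08), from 79.6, 75.5 and 99.8 CPM to between 5.51 and 6.76 CPM. S100A11 rose 3.51-fold (adjusted p = 2.03e-06), from 120.5, 114 and 75.3 CPM to between 345 and 371 CPM. ANXA1, the annexin that damps leukocyte migration, rose 5.33-fold (adjusted p = 8.46e-07), from 69.8, 73.3 and 39.9 CPM to between 324 and 328 CPM, and ANXA2, a surface receptor for plasminogen, rose 5.47-fold (adjusted p = 8.13e-07), from 106, 102 and 58.1 CPM to between 472 and 497 CPM. S100A11, ANXA1 and ANXA2 were lowest in control replicate 3.

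Several genes that feed back on receptor signalling rose. The class of DUSP, SPRY and SPRED genes, which switch off MAP kinases, was not limited to these families and also held PHLDA1. Of its 33 members tested, 24 rose and 7 fell, 19 and 5 of them by at least 2-fold, with a median log2 fold change of 1.42 (1.48 without control replicate 3). DUSP2, a nuclear MAP kinase phosphatase, rose 11.4-fold (adjusted p = 1.1e-08), from 10.5, 9.08 and 6.96 CPM to between 90.9 and 109 CPM. PHLDA1, an early response gene, rose 95.2-fold (adjusted p = 1.23e-07), from 5.59, 6.41 and 1.21 CPM to between 416 and 436 CPM. SOCS3, the feedback inhibitor of cytokine receptors, rose 17.3-fold (adjusted p = 9.52e-07), from 12.3, 13 and 3.86 CPM to between 162 and 176 CPM. RGS16, which ends signalling by G proteins, rose 47.5-fold (adjusted p = 5.04e-06), from 30.2, 29.7 and 4.47 CPM to between 982 and 1060.1 CPM. For regulators of G-protein signalling, 6 of 16 tested members rose and 6 fell (7 and 6 without control replicate 3), with a median log2 fold change of 0.23, although scaled by library totals alone 6 rose and 7 fell (median 0.01). With all 3 controls these counts are near the shares of all genes, 34.6% higher and 33.2% lower. For DUSP2, PHLDA1, SOCS3 and RGS16 control replicate 3 was the lowest library and no treated library came near a control. RASGRP2, an activator of the integrin-regulating GTPase RAP1, stood at 196 and 182 CPM in control replicates 1 and 2, 189.8 CPM in control replicate 3 and 17.8, 19.7 and 19.3 CPM with scramble ectosomes, with control replicate 3 between the others. RASGRP2 fell 9.98-fold (log2 fold change -3.32, SE 0.08, adjusted p = 4.9e-10, and -3.32 without control replicate 3). MAP4K1, a kinase confined largely to blood cells, fell 24.2-fold (adjusted p = 1.7e-05), from 8.68, 9.77 and 29.1 CPM to between 0.479 and 0.737 CPM, or 14.2-fold without control replicate 3, the highest library.

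NF-kB, the transcription factor at the end of TNF and Toll-like receptor signalling, induces many of its own regulators. For TRAF, TNFAIP, NF-kB and IkB genes, of 50 members tested, 39 rose and 5 fell, 27 and 3 of them by at least 2-fold, with a median log2 fold change of 1.04 (1.07 without control replicate 3), although scaled by library totals alone 35 rose and 8 fell (median 0.83). Without control replicate 2, or without scramble-ectosome replicate 1, 3 and not 5 fell. NFKBIA, the inhibitor that holds NF-kB in the cytosol, stood at 125 and 113 CPM in control replicates 1 and 2, 38.9 CPM in control replicate 3 and 484, 514 and 533 CPM with scramble ectosomes. Control replicate 3 was the lowest library. NFKBIA rose 5.53-fold (log2 fold change 2.47, SE 0.33, adjusted p = 5.57e-05, and 2.10 without control replicate 3). TNFAIP3, the editing enzyme A20 that ends the signal, rose 3.01-fold (adjusted p = 0.000953), from 99.6, 101 and 33.6 CPM to between 222 and 250.5 CPM. BIRC3, an inhibitor of apoptosis bound to TNF receptors, rose 13.6-fold (adjusted p = 1.66e-06), from 9.43, 8.82 and 2.59 CPM to between 92.3 and 100.5 CPM. IER3, an early response gene of survival, stood at 2.88 and 2.58 CPM in control replicates 1 and 2, 0.0552 CPM in control replicate 3 and 368, 395 and 404 CPM with scramble ectosomes. A single read gave the level of control replicate 3, and the groups were far apart. IER3 rose 206-fold (log2 fold change 7.68, SE 0.48, adjusted p = 1.91e-07, and 7.16 without control replicate 3).

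Promoter sequence was read for these genes from RefSeq (GRCh38.p14, 250 bases before to 50 bases after each start), in which 10733 of 13646 tested protein-coding genes were matched by name. The NF-kB letters, read as GGGA, 1 base of any kind and TTTCC and searched on both strands, were in 9 of 44 matched promoters of the class (20.5%), against 0.678% of all 27305 genes in the RefSeq table. All 9 genes rose, with a median log2 fold change of 1.87, against 39 of 50 and a median of 1.04 in the whole class. A match is a description of these letters, not a site or a cause. The last 150 bases before the start of NFKBIA (chr14:35404750-35404899 on the minus strand) are printed because they hold the match, in capitals, which lies on the opposite strand.
NFKBIA: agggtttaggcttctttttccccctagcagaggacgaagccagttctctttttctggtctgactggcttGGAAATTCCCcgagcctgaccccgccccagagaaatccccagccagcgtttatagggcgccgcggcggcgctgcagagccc

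Transcription factor families moved unevenly. For AP-1, ATF and CREB factors, of 44 members tested, 34 rose and 3 fell, 26 and 3 of them by at least 2-fold, with a median log2 fold change of 1.24 (1.16 without control replicate 3), although scaled by library totals alone 33 rose and 6 fell (median 1.03). JUN, a core AP-1 subunit, rose 9.68-fold (adjusted p = 6.47e-05), from 40.5, 36.9 and 7.56 CPM to between 258 and 287 CPM, and JUNB rose 8.27-fold (adjusted p = 8.82e-07), from 73.8, 65.6 and 33.9 CPM to between 449 and 505 CPM. Their dimer partner FOS had 31.1, 28.4 and 13.6 CPM in control replicates 1, 2 and 3 and 30.1, 31.2 and 35.6 CPM in the scramble-ectosome libraries, the groups overlapped, and no difference was called (adjusted p = 0.148), although a 1.53-fold rise was called without control replicate 1. KDM6B, a demethylase that removes repressive histone marks, rose 12.5-fold (adjusted p = 2.68e-06), from 70.0, 61.5 and 22.9 CPM to between 629 and 665 CPM. These libraries lay close together with ectosomes and apart from every control. The Notch target HES1 rose 48.3-fold (adjusted p = 1.18e-07), from 0.373, 0.258 and 0.0552 CPM to between 9.21 and 13.2 CPM. The Notch ligand JAG1 rose 7.62-fold (adjusted p = 2.34e-06), from 5.38, 4.56 and 2.04 CPM to between 28.3 and 33.9 CPM. GFI1, a transcriptional repressor that acts in the granulocyte lineage, fell 5.33-fold (adjusted p = 2.35e-09), from 314, 280.0 and 299 CPM to between 54.3 and 58.6 CPM. Its control replicate 3 lay between the others. THRA, the thyroid hormone receptor alpha, fell 4.95-fold (adjusted p = 6.71e-08), from 41.1, 35 and 33.5 CPM to between 6.41 and 8.48 CPM. The rising genes among these were lowest in control replicate 3, namely JUN, JUNB, KDM6B, HES1 and JAG1. Of 455 tested ZNF zinc finger genes, 20.4% changed at least 2-fold, against 36.6% of all genes. Of that family 115 rose and 146 fell, which became 156 and 139 without control replicate 3. Its median was -0.05, or 0.04 without control replicate 3.

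**Figure D3:**
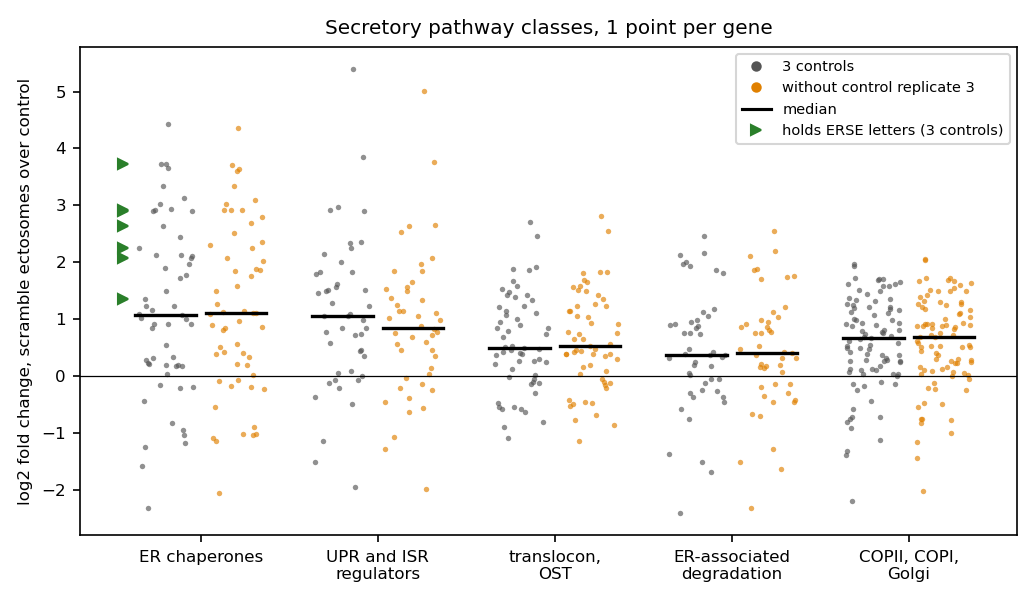
Log2 fold change of each tested gene (1 point) in 5 classes of the secretory pathway, with all 3 controls (grey) and without control replicate 3 (orange), the black bars being medians. Green triangles mark the 7 ER chaperone genes whose promoter holds the ERSE letters, all of them above 1. Medians with and without control replicate 3 differ most for the stress response regulators, 1.05 and 0.85.

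Most genes of the secretory pathway, from the ER to the Golgi, were higher. Proteins bound for export fold in the ER, whose chaperones are induced by the unfolded protein response. For ER chaperones and folding enzymes, of 57 members tested, 40 rose and 9 fell, 31 and 5 of them by at least 2-fold, with a median log2 fold change of 1.07 (1.11 without control replicate 3). Together these genes took 8103, 7738 and 8697 CPM in control replicates 1 to 3 and 28819, 30715 and 30260.0 CPM with scramble ectosomes, and control replicate 3 had the highest sum among the controls. HSPA5 (chromosome 9, 125234853 to 125241330, minus strand), the master chaperone BiP, stood at 382 and 369.6 CPM in control replicates 1 and 2, 275 CPM in control replicate 3 and 4344, 4647 and 4664 CPM with scramble ectosomes, a wide gap with control replicate 3 the lowest. HSPA5 rose 13.3-fold (log2 fold change 3.73, SE 0.13, adjusted p = 4.04e-09, and 3.60 without control replicate 3). HYOU1, a chaperone that acts with BiP, stood at 227 and 206 CPM in control replicates 1 and 2, 211 CPM in control replicate 3 and 2780.3, 2905 and 2819.6 CPM with scramble ectosomes. Control replicate 3 lay between the others. HYOU1 rose 13.2-fold (log2 fold change 3.72, SE 0.10, adjusted p = 6.27e-10, and 3.71 without control replicate 3).

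MANF, a secreted factor released on ER stress, rose 21.5-fold (adjusted p = 1.31e-09), from 33.1, 27.3 and 25.5 CPM to between 572 and 644 CPM. PDIA4, a disulfide isomerase, rose 12.7-fold (adjusted p = 4.9e-10), from 94.3, 92.6 and 89 CPM to between 1096 and 1211 CPM. Its 3 controls hardly differed. The chaperone HSP90B1 rose 7.56-fold (adjusted p = 4.59e-09), from 350.4, 375 and 449.8 CPM to between 2869 and 3009.8 CPM. CALR, which retains unfolded glycoproteins, rose 4.22-fold (adjusted p = 1.82e-06), from 737, 680.0 and 1152 CPM to between 3411 and 3741 CPM, and PDIA6 rose 4.75-fold (adjusted p = 4.76e-09), from 184, 173 and 196 CPM to between 846 and 898 CPM. In HSP90B1, CALR and PDIA6 control replicate 3 was the highest control, whereas in MANF and PDIA4 it was the lowest. For CALR the rise was larger without it (2.35 against 2.08 on the log2 scale). Folding enzymes were not uniformly higher. ERP29 fell 2.38-fold (adjusted p = 1.62e-06), from 268, 251 and 325 CPM to between 112 and 124 CPM, and TXNDC16 fell 4.98-fold (adjusted p = 2.48e-06), from 11.6, 13 and 19.7 CPM to between 2.79 and 3.02 CPM. Both were highest in control replicate 3.

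The ER stress response element (ERSE), read here as CCAAT, 9 bases of any kind and CCACG, is bound by factors of the unfolded protein response. Searched on both strands, it was in 7 of 52 matched promoters of ER chaperone genes (13.5%), against 0.0769% of all 35116 promoter windows and 0.0916% of all genes in the RefSeq table. Every match also holds a CCAAT box. The 7 genes all rose, with a median log2 fold change of 2.64, against 40 of 57 and a median of 1.07 in the whole class. Over all tested genes, 16 held the letters, of which 14 rose and 1 fell, 10 and 1 by at least 2-fold, with a median of 1.40. Of all tested genes 34.6% rose. CRELD2 and ALG12, on opposite strands of chromosome 22, hold the same match, and so do EIF2A and SERP1 on chromosome 3. Each of these genes rose, so the 16 genes are not 16 separate matches. In 4 of the chaperone promoters the 200 bases before the start are printed, capitals marking the ERSE letters. They are HSPA5 at chr9:125241344-125241543 on the minus strand, HSP90B1 at chr12:103930210-103930409 on the plus strand, PDIA6 at chr2:10812786-10812985 on the minus strand and CRELD2 at chr22:49918434-49918633 on the plus strand. HSP90B1 holds 2 matches, 1 on each strand, and CRELD2 holds 1 on the opposite strand. CRELD2, an ER protein of the stress response, rose 7.48-fold (adjusted p = 3.86e-08), from 39.6, 29.6 and 26.2 CPM to between 218 and 251 CPM.
HSPA5: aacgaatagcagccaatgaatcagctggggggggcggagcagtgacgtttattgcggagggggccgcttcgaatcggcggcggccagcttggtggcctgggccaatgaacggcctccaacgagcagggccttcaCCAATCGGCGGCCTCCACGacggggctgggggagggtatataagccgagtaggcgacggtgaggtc
HSP90B1: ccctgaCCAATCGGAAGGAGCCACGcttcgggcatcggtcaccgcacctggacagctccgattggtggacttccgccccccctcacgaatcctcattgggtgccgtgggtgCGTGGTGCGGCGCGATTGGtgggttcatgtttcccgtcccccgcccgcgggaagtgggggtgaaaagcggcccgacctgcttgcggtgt
PDIA6: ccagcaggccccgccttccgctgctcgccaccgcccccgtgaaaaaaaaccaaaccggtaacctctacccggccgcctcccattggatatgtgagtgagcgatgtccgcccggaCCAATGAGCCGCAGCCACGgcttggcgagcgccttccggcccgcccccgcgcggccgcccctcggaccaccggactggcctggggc
CRELD2: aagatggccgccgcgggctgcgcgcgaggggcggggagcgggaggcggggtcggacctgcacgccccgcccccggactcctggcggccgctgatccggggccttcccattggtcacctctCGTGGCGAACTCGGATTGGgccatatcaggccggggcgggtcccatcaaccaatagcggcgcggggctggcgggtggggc

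Among regulators of the unfolded protein and integrated stress responses, of 46 members tested, 33 rose and 5 fell, 24 and 3 of them by at least 2-fold, with a median log2 fold change of 1.05 (0.85 without control replicate 3), although scaled by library totals alone 32 rose and 8 fell (median 0.84). In this class control replicate 3 lay a median of -0.80 (log2) from the other controls, against 0.01 in the chaperones. DDIT3, the stress factor CHOP, rose 4.42-fold (adjusted p = 2.19e-05), from 37, 37.8 and 16.5 CPM to between 123 and 142 CPM. TRIB3, its target, rose 4.79-fold (adjusted p = 0.000384), from 394, 346 and 94.8 CPM to between 1303 and 1369 CPM. XBP1, the spliced factor of the unfolded protein response, rose 2.34-fold (adjusted p = 0.000222), from 337, 300.3 and 169 CPM to between 621 and 636 CPM. All 3 were lowest in control replicate 3. ASNS, the asparagine synthetase that the amino acid branch of the response induces, stood at 5.27, 5.64 and 2.87 CPM in control replicates 1, 2 and 3 and 5.64, 4.48 and 4.7 CPM in the scramble-ectosome libraries, with overlapping groups and no call (adjusted p = 0.723). The translocon, signal peptidase and oligosaccharyltransferase, which thread and glycosylate new proteins, were higher, as 38 of 57 tested members rose and 10 fell (41 and 11 without control replicate 3), with a median log2 fold change of 0.49. For COPII, COPI and Golgi transport genes, of 90 members tested, 60 rose and 12 fell, 29 and 4 of them by at least 2-fold, with a median log2 fold change of 0.66 (0.69 without control replicate 3). Among them SEC24D, a cargo adaptor of COPII vesicles, rose 3.0-fold (adjusted p = 1.6e-08), from 80.3, 75.8 and 73 CPM to between 226 and 233 CPM and SEC31B, a minor coat subunit, fell 4.58-fold (adjusted p = 3.59e-07), from 31.7, 34.7 and 46.8 CPM to between 7.53 and 9.3 CPM. For ER-associated degradation, 28 of 47 tested members rose and 11 fell (29 and 11 without control replicate 3), with a median log2 fold change of 0.38. SEL1L, the scaffold of its ubiquitin ligase, rose 4.0-fold (adjusted p = 9.45e-08), from 139, 142 and 107 CPM to between 493 and 545 CPM.

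Cytosolic chaperones rose more modestly. For cytosolic heat shock proteins and the chaperonin, of 59 members tested, 41 rose and 10 fell, 14 and 3 of them by at least 2-fold, with a median log2 fold change of 0.46 (0.54 without control replicate 3). HSPA8, the constitutive chaperone HSC70, was an exception, at 1124 and 1108 CPM in control replicates 1 and 2, 2389 CPM in control replicate 3 and 691, 736 and 729 CPM with scramble ectosomes. Control replicate 3 stood far above the other controls, and without it the fall was 1.55-fold and not 2.14-fold (adjusted p = 7.09e-08 and 0.00241). For proteasome subunits, 1 passed 2-fold in each direction, and 28 of 49 tested members rose and 7 fell (30 and 7 without control replicate 3), with a median log2 fold change of 0.25, although scaled by library totals alone 17 rose and 10 fell (median 0.05).

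**Figure D4:**
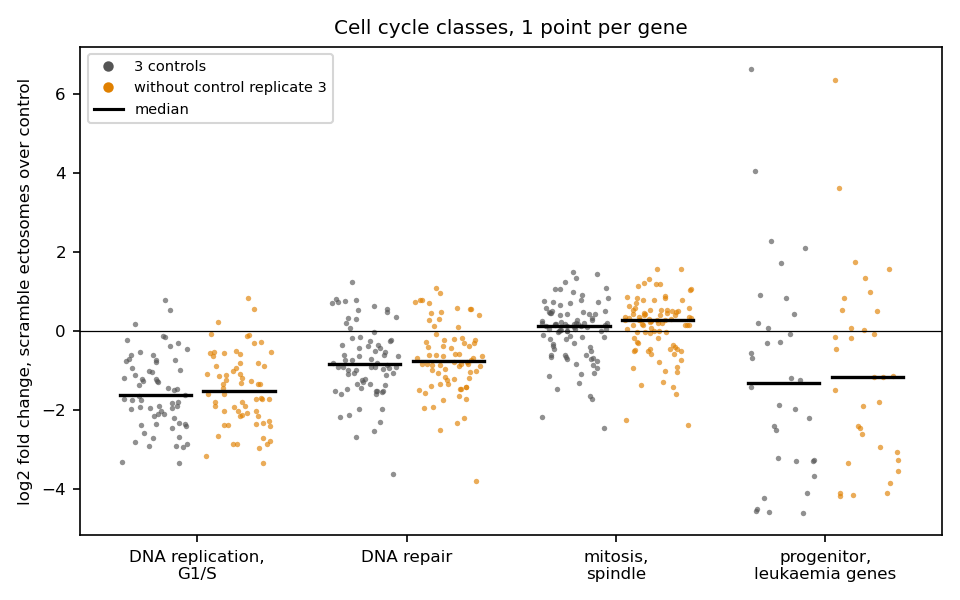
Log2 fold change of each tested gene (1 point) in 4 classes of dividing and progenitor cells, with all 3 controls (grey) and without control replicate 3 (orange), the black bars being medians. DNA replication genes lie below 0 with 2 called exceptions, while mitosis genes scatter around a median of 0.11, or 0.26 without control replicate 3.

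Genes of DNA replication fell together, while those of mitosis did not. For DNA replication and G1/S genes, of 66 members tested, 2 rose and 60 fell, 0 and 47 of them by at least 2-fold, with a median log2 fold change of -1.64 (-1.51 without control replicate 3). The class took 7265, 6846 and 8011 CPM in control replicates 1 to 3 and 2436, 2475 and 2495 CPM with scramble ectosomes. GINS2 (chromosome 16, 85676198 to 85690073, minus strand), a subunit of the replicative helicase, stood at 43.7 and 39.4 CPM in control replicates 1 and 2, 43.9 CPM in control replicate 3 and 3.11, 5.16 and 4.17 CPM with scramble ectosomes. The 3 controls agreed closely and lay far above the treated cells. GINS2 fell 10.2-fold (log2 fold change -3.36, SE 0.17, adjusted p = 3.98e-08, and -3.33 without control replicate 3). PCNA, the sliding clamp of DNA polymerase, stood at 119.6 and 107 CPM in control replicates 1 and 2, 143 CPM in control replicate 3 and 27.8, 26.6 and 28.2 CPM with scramble ectosomes. Control replicate 3 was the highest. PCNA fell 4.47-fold (log2 fold change -2.16, SE 0.12, adjusted p = 8.31e-08, and -2.04 without control replicate 3). LIG1, the ligase that joins Okazaki fragments, fell 7.28-fold (adjusted p = 4.55e-09), from 103, 99.5 and 117 CPM to between 13.6 and 15.5 CPM. MCM3, a helicase subunit, fell 5.13-fold (adjusted p = 1.24e-07), from 496, 480.4 and 708 CPM to between 109 and 111 CPM. E2F7, a repressor within the E2F family, was 1 of the 2 that rose, 1.71-fold (adjusted p = 1.48e-05), from 35.6, 34.7 and 40.0 CPM to between 61 and 64.7 CPM. All of these were highest among the controls in control replicate 3, that is, farther from the treated cells in the genes that fell and nearer to them in E2F7. For DNA repair genes, of 74 members tested, 13 rose and 56 fell, 1 and 28 of them by at least 2-fold, with a median log2 fold change of -0.84 (-0.76 without control replicate 3).

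Mitosis and spindle genes went both ways, as 29 of 91 tested members rose and 26 fell (51 and 26 without control replicate 3), with a median log2 fold change of 0.11, although scaled by library totals alone 22 rose and 32 fell (median -0.09). Over all genes 34.6% rose and 33.2% fell, so the split with all 3 controls is close to that of all genes. Control replicate 3 lay a median of 0.31 (log2) above the other controls in this class. CDC20, the activator of the anaphase-promoting complex, stood at 247 and 231 CPM in control replicates 1 and 2, 279 CPM in control replicate 3 and 689, 700.2 and 742 CPM with scramble ectosomes. No control reached the level of any treated library. CDC20 rose 2.82-fold (log2 fold change 1.49, SE 0.09, adjusted p = 1.73e-07, and 1.57 without control replicate 3). AURKA, a spindle pole kinase, rose 2.72-fold (adjusted p = 3.49e-07), from 51.4, 54.4 and 66.3 CPM to between 146 and 164 CPM. PLK1, a kinase of mitotic entry, rose 2.11-fold (adjusted p = 8.54e-07), from 73.6, 64.4 and 61.9 CPM to between 138 and 142 CPM. CCNB1, the mitotic cyclin, rose 2.09-fold (adjusted p = 6.79e-06), from 96.4, 96.6 and 128 CPM to between 219 and 229 CPM. Among the controls, CDC20, AURKA and CCNB1 were highest and PLK1 lowest in control replicate 3. For the partner kinase CDK1, with 89.1, 94.6 and 119 CPM in control replicates 1, 2 and 3 and 109, 108 and 110.3 CPM in the scramble-ectosome libraries, a rise was called only without control replicate 3 (adjusted p = 0.344 with it and 0.00133 without). For TOP2A, which untangles chromosomes, it was likewise, with adjusted p = 0.218 and 7.47e-05. Among kinetochore genes CENPM fell 5.51-fold (adjusted p = 8.48e-08), from 33.8, 31.9 and 38.6 CPM to between 5.75 and 7.37 CPM and CENPU fell 4.56-fold (adjusted p = 3.83e-08), from 73.5, 72.4 and 61 CPM to between 14.4 and 16.5 CPM.

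The promoters of both classes were read for the letters that E2F factors and the late cell cycle complex are known to bind. The E2F letters TTTCCCGC were in 13 of 55 matched replication promoters (23.6%), against 1.98% of all genes, and another form, TTTGGCGC, in 11 (20.0%) against 0.795%. Of the 13 genes 12 fell and 1 rose, with a median log2 fold change of -1.97. In the whole class 60 of 66 tested members fell, with a median of -1.64. The letters TTTGAA of the cell cycle homology region (CHR) were in 50 of 78 matched mitosis promoters (64.1%), in 10.9% of replication promoters and in 18.2% of all genes. Of the 50 genes 14 rose and 14 fell, with a median of 0.10. Of all 91 tested mitosis genes 29 rose and 26 fell, with a median of 0.11. Of the 6 replication genes with CHR letters, 5 fell and 1 rose. Members with the letters thus moved much as their class did. Both strands were searched, and the 2 E2F forms, which differ in their letters, were counted separately. The 150 bases before the start are printed for GINS2 (chr16:85688955-85689104 on the minus strand) and PCNA (chr20:5126623-5126772 on the minus strand), with E2F letters in capitals on the opposite strand, and for CDC20 (chr1:43358831-43358980 on the plus strand) and PLK1 (chr16:23678739-23678888 on the plus strand), with CHR letters in capitals.
GINS2: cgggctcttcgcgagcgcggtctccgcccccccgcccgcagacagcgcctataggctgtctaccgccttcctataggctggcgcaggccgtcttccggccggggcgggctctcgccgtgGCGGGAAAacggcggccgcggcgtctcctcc
PCNA: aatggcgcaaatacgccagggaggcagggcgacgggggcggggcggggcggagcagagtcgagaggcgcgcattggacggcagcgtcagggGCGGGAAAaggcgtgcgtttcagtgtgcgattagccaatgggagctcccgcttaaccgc
CDC20: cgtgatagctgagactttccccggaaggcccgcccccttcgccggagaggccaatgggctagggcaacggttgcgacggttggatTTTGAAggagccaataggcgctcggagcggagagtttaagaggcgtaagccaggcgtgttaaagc
PLK1: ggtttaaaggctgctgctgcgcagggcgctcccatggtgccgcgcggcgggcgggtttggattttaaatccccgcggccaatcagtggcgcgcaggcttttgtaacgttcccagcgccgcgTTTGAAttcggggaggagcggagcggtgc

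CDKN1A and BTG2, which restrain the cell cycle, rose, and BCL2, a gene of cell survival, fell. For cyclin-dependent kinase inhibitors and the p53 response, 21 of 42 tested members rose and 11 fell (24 and 13 without control replicate 3), with a median log2 fold change of 0.33. CDKN1A, the cyclin-dependent kinase inhibitor p21, stood at 180.1 and 167 CPM in control replicates 1 and 2, 53.6 CPM in control replicate 3 and 1223, 1239.8 and 1273 CPM with scramble ectosomes. By a wide margin it was lowest in control replicate 3. CDKN1A rose 9.31-fold (log2 fold change 3.22, SE 0.35, adjusted p = 1.31e-05, and 2.84 without control replicate 3). BTG2, an antiproliferative gene of the p53 response, rose 9.58-fold (adjusted p = 3.06e-05), from 83.4, 86.1 and 21.4 CPM to between 587 and 623 CPM. CCND1, cyclin D1, also rose, 8.62-fold (adjusted p = 2.17e-06), from 22.9, 20.3 and 8.5 CPM to between 141 and 158 CPM. BCL2, the founding inhibitor of apoptosis, stood at 219 and 209 CPM in control replicates 1 and 2, 281 CPM in control replicate 3 and 33.9, 35.2 and 35.2 CPM with scramble ectosomes. Control replicate 3 was the highest library. BCL2 fell 6.8-fold (log2 fold change -2.77, SE 0.11, adjusted p = 1.13e-08, and -2.62 without control replicate 3). The killer BIK fell 6.77-fold (adjusted p = 4.05e-05), from 10.2, 9.9 and 24.3 CPM to between 1.87 and 2.53 CPM. For the BCL2 family, caspases and inhibitors of apoptosis as a whole, 34 of 56 tested members rose and 10 fell (35 and 12 without control replicate 3), with a median log2 fold change of 0.54. Survival genes did not all fall, as BCL2A1 and BIRC3 of this class rose (log2 fold change 5.67 and 3.76).

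Genes of the myeloid progenitor and of leukaemia were mostly lower, and their sum was highest in control replicate 3. In this class 8 of 34 tested rose and 21 fell, 5 and 19 of them by at least 2-fold. The class sum was 6708, 6152 and 9273 CPM in control replicates 1 to 3 and 3054, 3169 and 3248 CPM with scramble ectosomes. CTSG, the granule protease cathepsin G, stood at 549 and 479 CPM in control replicates 1 and 2, 1166 CPM in control replicate 3 and 29.1, 28.5 and 32.5 CPM with scramble ectosomes. It was highest in control replicate 3, on the far side from the treated cells. CTSG fell 24.4-fold (log2 fold change -4.61, SE 0.31, adjusted p = 3.65e-07, and -4.10 without control replicate 3). Its neighbour in the granule PRTN3 fell 23.8-fold (adjusted p = 1.25e-07), from 276, 237 and 501 CPM to between 12.5 and 15.2 CPM. MS4A3, a granulocyte progenitor gene, fell 30.2-fold (adjusted p = 1.52e-05), from 68.8, 70.0 and 283 CPM to between 4.38 and 4.95 CPM, and without control replicate 3, far above the other controls, the fall was 15-fold. CDCA7, a chromatin gene of dividing progenitors, fell 24-fold (adjusted p = 1.69e-07), from 109, 114 and 228 CPM to between 5.51 and 6.68 CPM.

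Ribosome and splicing genes shifted by small steps. For cytosolic ribosomal proteins, 2 of 85 tested members rose and 45 fell (3 and 47 without control replicate 3), with a median log2 fold change of -0.28, although scaled by library totals alone 1 rose and 75 fell (median -0.48), and none of them passed 2-fold. Without scramble-ectosome replicate 1, 28 fell, and without control replicate 2 or scramble-ectosome replicate 3, 1 rose. Together they took 79043, 71171 and 86817 CPM in control replicates 1 to 3 and 60311, 64914 and 66839 CPM with scramble ectosomes, highest in control replicate 3. RPSA, a protein of the small subunit, fell 1.62-fold (adjusted p = 2.61e-05), from 1284, 1198 and 1341 CPM to between 739 and 820.5 CPM. RPL22L1, a paralogue of RPL22, rose 1.74-fold (adjusted p = 0.000843), from 18.1, 16.9 and 26.4 CPM to between 34 and 36.8 CPM. Ribosomal proteins have many processed copies, so reads may have been exchanged. For nucleolar ribosome biogenesis genes, 14 of 97 tested members rose and 45 fell (24 and 44 without control replicate 3), with a median log2 fold change of -0.21, although scaled by library totals alone 9 rose and 59 fell (median -0.41). For splicing factors and hnRNPs, 43 of 168 tested members rose and 63 fell (59 and 65 without control replicate 3), with a median log2 fold change of -0.12, although scaled by library totals alone 26 rose and 89 fell (median -0.32). RNA decay and RNA-binding regulators were higher, as 40 of 78 tested members rose and 19 fell (43 and 19 without control replicate 3), with a median log2 fold change of 0.25, although scaled by library totals alone 33 rose and 30 fell (median 0.04). ZC3H12A, the nuclease regnase that destroys cytokine messages, rose 9.0-fold (adjusted p = 5.62e-06), from 34.1, 31.4 and 11.2 CPM to between 227 and 238 CPM.

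Respiratory chain genes of the nucleus were more often lower, and the genes of the mitochondrial genome were not. The mitochondrial class holds 37 genes of that genome and is not limited to respiratory chain subunits. For nuclear-encoded subunits, 16 of 96 tested members rose and 44 fell (21 and 43 without control replicate 3), with a median log2 fold change of -0.25, although scaled by library totals alone 8 rose and 60 fell (median -0.45), and without scramble-ectosome replicate 1 the number that fell was 26. NDUFV1, a catalytic subunit of complex I, fell 2.94-fold (adjusted p = 1.8e-07), from 193, 172 and 211 CPM to between 63.2 and 67 CPM, and cytochrome c, encoded by CYCS, rose 1.53-fold (adjusted p = 0.000114), from 255, 250.5 and 299 CPM to between 393 and 426 CPM. For mitochondrially encoded genes, 8 of 30 tested members rose and 1 fell (16 and 1 without control replicate 3), with a median log2 fold change of 0.18, although scaled by library totals alone 5 rose and 5 fell (median -0.02). None fell without scramble-ectosome replicate 1 or 3. Mitochondrial transcripts took between 4.27% and 4.56% of the counts of each library.

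Nucleotide synthesis genes were mostly lower. For purine and pyrimidine synthesis, 8 of 44 tested members rose and 31 fell (9 and 31 without control replicate 3), with a median log2 fold change of -0.68. DHODH, the pyrimidine enzyme of the inner mitochondrial membrane, fell 7.05-fold (adjusted p = 1.84e-08), from 25, 25.6 and 30.7 CPM to between 3.57 and 4.22 CPM. TK1, the S-phase thymidine kinase, fell 4.29-fold (adjusted p = 2.79e-08), from 190.4, 168 and 167 CPM to between 39.4 and 42.3 CPM. ADA, which clears adenosine, fell 5.34-fold (adjusted p = 1.49e-07), from 17.7, 13.7 and 15.8 CPM to between 2.83 and 3.16 CPM. Every control of these 3 genes stood above every treated library, where 71.3% of all genes had groups that did not overlap. The surface enzyme CD73, which makes adenosine from AMP and is encoded by NT5E, stood at 3.25 and 3.23 CPM in control replicates 1 and 2, 3.7 CPM in control replicate 3 and 102, 98.7 and 99.8 CPM with scramble ectosomes, the 3 controls nearly equal. NT5E rose 29.6-fold (log2 fold change 4.89, SE 0.09, adjusted p = 2.83e-10, and 4.95 without control replicate 3). UPP1, which breaks down uridine, rose 40.4-fold (adjusted p = 2.97e-07), from 5.75, 5.94 and 1.21 CPM to between 168 and 187 CPM, with control replicate 3 the lowest library.

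Carbohydrate and lipid genes changed one by one. For glycolysis, lactate and pentose phosphate genes, of 42 members tested, 16 rose and 15 fell, 10 and 6 of them by at least 2-fold, with a median log2 fold change of 0.08 (-0.07 without control replicate 3), although scaled by library totals alone 14 rose and 18 fell (median -0.13). Over all genes 34.6% rose and 33.2% fell. HK3, the hexokinase of granulocytes, fell 26.1-fold (adjusted p = 6.87e-06), from 12.5, 12.5 and 32.1 CPM to between 0.316 and 1.01 CPM, or 17.1-fold without control replicate 3, the highest library. PYGL, which releases glucose from glycogen, stood at 184 and 182 CPM in control replicates 1 and 2, 248 CPM in control replicate 3 and 26.9, 24.5 and 27.2 CPM with scramble ectosomes. It was again highest in control replicate 3. PYGL fell 7.82-fold (log2 fold change -2.97, SE 0.12, adjusted p = 1.2e-08, and -2.81 without control replicate 3). ME1, which makes NADPH from malate, rose 15.9-fold (adjusted p = 1.08e-06), from 21.3, 22 and 7.18 CPM to between 262 and 273 CPM. G0S2, an inhibitor of fat breakdown, rose 16.3-fold (adjusted p = 1.59e-06), from 19, 16.2 and 5.3 CPM to between 206 and 232 CPM. ALOX5AP, the partner of 5-lipoxygenase, rose 14.9-fold (adjusted p = 9.33e-07), from 29.2, 29.3 and 10.8 CPM to between 328 and 359 CPM, whereas LTC4S, which makes leukotriene C4, fell 14.1-fold (adjusted p = 6.12e-07), from 41.3, 29.4 and 57.1 CPM to between 2.0 and 3.88 CPM. DHRS9, a retinol dehydrogenase, stood at 213 and 217 CPM in control replicates 1 and 2, 209.7 CPM in control replicate 3 and 5.15, 4.69 and 6.04 CPM with scramble ectosomes. Its 3 controls agreed closely. DHRS9 fell 40.2-fold (log2 fold change -5.33, SE 0.11, adjusted p = 3.8e-10, and -5.34 without control replicate 3).

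SPHK1, which makes sphingosine 1-phosphate, rose 12.9-fold (adjusted p = 1.17e-06), from 10.5, 8.7 and 3.15 CPM to between 96.3 and 98.8 CPM. In polyamine breakdown SMOX rose 12.5-fold (adjusted p = 1.13e-07), from 5.7, 4.69 and 2.48 CPM to between 52 and 55.6 CPM and PAOX fell 7.48-fold (adjusted p = 1.18e-07), from 9.43, 9.51 and 11.9 CPM to between 1.16 and 1.53 CPM. IL4I1, a secreted oxidase of aromatic amino acids, rose 6.9-fold (adjusted p = 0.00454), from 111, 94.5 and 5.35 CPM to between 458 and 503 CPM, and without control replicate 3, which was far below the others, the rise was 4.73-fold. IL4I1 overlaps NUP62 and ATF5, so some reads may be theirs. CYP1B1, a target of the aryl hydrocarbon receptor, rose 13.6-fold (adjusted p = 1.88e-09), from 10.6, 8.87 and 12.2 CPM to between 138 and 147 CPM. ABCA1, which exports cholesterol, rose 5.36-fold (adjusted p = 1.28e-07), from 18.4, 18.4 and 26.6 CPM to between 107 and 123 CPM. SPHK1, SMOX and IL4I1 were lowest in control replicate 3, whereas CYP1B1 and ABCA1 were highest there among the controls.

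Antioxidant genes were more often higher than lower. NRF2 is the factor that induces glutathione and thioredoxin genes. For this class, of 53 members tested, 30 rose and 13 fell, 19 and 6 of them by at least 2-fold, with a median log2 fold change of 0.64 (0.62 without control replicate 3). HMOX1, the enzyme that splits heme, stood at 2.56 and 2.45 CPM in control replicates 1 and 2, 0.552 CPM in control replicate 3 and 140.3, 144 and 149 CPM with scramble ectosomes. The groups were far apart, with control replicate 3 the lowest library. HMOX1 rose 76.1-fold (log2 fold change 6.25, SE 0.29, adjusted p = 2.62e-08, and 5.85 without control replicate 3). GCLM, the modifier of glutathione synthesis, rose 9.06-fold (adjusted p = 8.2e-09), from 23.4, 22 and 26.8 CPM to between 216 and 221 CPM, with control replicate 3 the highest control. CAT, the catalase that breaks down hydrogen peroxide, stood at 293 and 281 CPM in control replicates 1 and 2, 529.9 CPM in control replicate 3 and 48.2, 56.2 and 49.7 CPM with scramble ectosomes. Control replicate 3 was the highest library. CAT fell 7.16-fold (log2 fold change -2.84, SE 0.22, adjusted p = 8.46e-07, and -2.48 without control replicate 3). GSTM1, a glutathione transferase with close paralogues, fell 7.45-fold (adjusted p = 9.78e-08), from 25.9, 25 and 28.7 CPM to between 2.92 and 4.74 CPM. For iron, heme and metallothionein genes, 19 of 60 tested members rose and 23 fell (28 and 23 without control replicate 3), with a median log2 fold change of 0.06, although scaled by library totals alone 17 rose and 26 fell (median -0.15). Ferritin, which stores iron, rose in both chains. FTH1, the heavy chain, rose 12-fold (adjusted p = 5.22e-05), from 369, 323 and 70.9 CPM to between 2876 and 3233 CPM, the rise being 8.8-fold without control replicate 3. FTL, the light chain, rose 2.73-fold (adjusted p = 1.01e-06), from 1625, 1382 and 1197 CPM to between 3557 and 4016 CPM.

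Metallothioneins, which bind zinc and copper, depended on control replicate 3. MT2A stood at 2.82 and 2.32 CPM in control replicates 1 and 2, 42 CPM in control replicate 3 and 45.6, 53 and 55 CPM with scramble ectosomes. Control replicate 3 lay near the treated cells and far above the other controls. No difference was called for MT2A (log2 fold change 1.73, adjusted p = 0.0724), and without that library it rose 20.0-fold (adjusted p = 1.45e-14). MT1X had 0.852 and 0.56 CPM in control replicates 1 and 2, 9.33 CPM in control replicate 3 and 5.19, 6.95 and 5.89 CPM with scramble ectosomes, so that control replicate 3 exceeded every other library. The adjusted p of MT1X was 0.362 with it and 2.39e-09 without. The zinc transporter SLC30A4, in contrast, stood at 0.373 and 0.387 CPM in control replicates 1 and 2, 0.11 CPM in control replicate 3 and 56.7, 51 and 45.3 CPM with scramble ectosomes. All controls were far below the treated cells. SLC30A4 rose 167-fold (log2 fold change 7.39, SE 0.22, adjusted p = 1.88e-09, and 7.04 without control replicate 3). What set control replicate 3 apart was not tested.

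Nutrient transporters of amino acids rose. For amino acid transporters, of 32 members tested, 18 rose and 6 fell, 13 and 4 of them by at least 2-fold, with a median log2 fold change of 0.89 (0.80 without control replicate 3). The class took 4250.4, 4026 and 2554 CPM in control replicates 1 to 3 and 11050.0, 10834 and 10717 CPM with scramble ectosomes. SLC3A2, the heavy chain shared by several of them, rose 7.45-fold (adjusted p = 5.24e-07), from 385, 349 and 195 CPM to between 2276 and 2334 CPM. SLC7A11, its cystine-importing partner, rose 7.6-fold (adjusted p = 5.45e-05), from 149, 160.1 and 42 CPM to between 870.1 and 900.4 CPM. SLC43A2, a carrier of large neutral amino acids, rose 22.4-fold (adjusted p = 4.52e-06), from 42.3, 38.1 and 9.33 CPM to between 668 and 675 CPM. Each was lowest in control replicate 3. SLC37A4, which moves glucose 6-phosphate into the ER, fell 11.8-fold (adjusted p = 1.11e-08), from 39.2, 35 and 48.5 CPM to between 3.11 and 3.79 CPM. For solute carriers of all kinds, 96 of 224 tested members rose and 73 fell (106 and 80 without control replicate 3), with a median log2 fold change of 0.17, although scaled by library totals alone 83 rose and 82 fell (median -0.03). CACNB1, a subunit of voltage-gated calcium channels, fell 30.6-fold (adjusted p = 7e-08), from 27.8, 33.7 and 28.2 CPM to between 0.496 and 1.32 CPM. In the phagocyte oxidase the membrane subunit CYBB rose 2.73-fold (adjusted p = 5.2e-05), from 59.8, 58.2 and 32.5 CPM to between 123 and 151 CPM. HVCN1, the proton channel that sustains the oxidase, fell 8.11-fold (adjusted p = 3.57e-06), from 31.2, 29.5 and 14 CPM to between 2.71 and 3.42 CPM, and the oxidase activator NOXA1 fell 11.2-fold (adjusted p = 1.79e-08), from 32.5, 31.3 and 31.2 CPM to between 2.3 and 3.12 CPM.

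Genes of antigen presentation went both ways. For MHC class I and peptide loading genes, 13 of 26 tested members rose and 7 fell (14 and 7 without control replicate 3), with a median log2 fold change of 0.18, although scaled by library totals alone 12 rose and 8 fell (median -0.03). TAP1, which pumps peptides into the ER, rose 4.05-fold (adjusted p = 1.69e-08), from 75.6, 73.2 and 62.4 CPM to between 282 and 287 CPM. B2M, the shared light chain, rose 2.79-fold (adjusted p = 3.72e-08), from 644, 654 and 618 CPM to between 1705 and 1819.8 CPM. For MHC class II genes and partners, 5 of 17 tested members rose and 6 fell (5 and 7 without control replicate 3), with a median log2 fold change of -0.11 (0.01 without control replicate 3), where 34.6% of all genes rose and 33.2% fell. HLA-DRA, at 3.62, 4.65 and 4.8 CPM in control replicates 1, 2 and 3 and 10.8, 10.8 and 10.8 CPM in the scramble-ectosome libraries, rose 2.47-fold (adjusted p = 6.21e-06), while HLA-DRB1 fell 1.45-fold (adjusted p = 0.000299), from 55.9, 47.9 and 51.3 CPM to between 33.5 and 37 CPM and the invariant chain CD74 fell 1.38-fold (adjusted p = 0.00297), from 182, 163 and 134 CPM to between 109 and 119 CPM. HLA genes are polymorphic and alike, so their reads are uncertain. Lysosomal hydrolases, cathepsins and cystatins were even, as 32 of 69 tested members rose and 27 fell (33 and 28 without control replicate 3), with a median log2 fold change of 0.21, although scaled by library totals alone 30 rose and 30 fell (median 0.01).

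The most abundant actin genes fell. ACTB stood at 6903 and 5919.7 CPM in control replicates 1 and 2, 4769.5 CPM in control replicate 3 and 3375, 3779 and 3757 CPM with scramble ectosomes, the largest loss in CPM of any gene. Control replicate 3 was the lowest control. ACTB fell 1.61-fold (log2 fold change -0.69, SE 0.12, adjusted p = 0.000495, and -0.82 without control replicate 3). ACTG1 fell 1.89-fold (adjusted p = 3.58e-06), from 2562, 2313 and 2445 CPM to between 1183 and 1349 CPM. GSN, the actin-severing gelsolin, fell 4.91-fold (adjusted p = 8.54e-07), from 1368, 1205 and 787 CPM to between 205 and 248 CPM. Its relative SCIN fell 9.14-fold (adjusted p = 5.19e-08), from 12.7, 13.8 and 11.2 CPM to between 1.16 and 1.53 CPM. MARCKS, which links actin to the membrane, rose 19.2-fold (adjusted p = 1.22e-08), from 12.7, 9.69 and 6.79 CPM to between 175 and 193 CPM, and the formin FMNL3 rose 13.6-fold (adjusted p = 3.17e-08), from 12, 12.8 and 6.96 CPM to between 133 and 155 CPM. Across actin and its regulators, 42 of 87 tested members rose and 19 fell (49 and 24 without control replicate 3), with a median log2 fold change of 0.24, although scaled by library totals alone 32 rose and 26 fell (median 0.04). Other abundant transcripts that fell were PTMA, prothymosin alpha, with the 3 controls nearly equal, which fell 3.99-fold (adjusted p = 5.15e-09), from 2683, 2628 and 2682 CPM to between 641 and 688 CPM, and SRGN, the granule proteoglycan serglycin, which fell 2.85-fold (adjusted p = 2.21e-05), from 1567, 1583 and 2652 CPM to between 662 and 702 CPM. EMB, a membrane partner of lactate carriers, fell 7.25-fold (adjusted p = 2.1e-05), from 589, 617 and 1603 CPM to between 119 and 137 CPM, or 4.67-fold without control replicate 3, the highest library. GRK2, a kinase that switches off receptors, fell 3.74-fold (adjusted p = 2.64e-08), from 1131, 973 and 1076 CPM to between 278 and 289 CPM.

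Interferon-induced genes showed the highest share of 2-fold rises among the classes plotted. Interferons induce them through factors that bind the interferon-stimulated response element (ISRE), read here as GAAA, 2 bases of any kind and GAAA. For these genes, which include the guanylate-binding proteins and other immunity GTPases, of 59 members tested, 47 rose and 4 fell, 46 and 1 of them by at least 2-fold, with a median log2 fold change of 1.97 (1.59 without control replicate 3). Control replicate 3 lay a median of -1.19 (log2) from the other controls, and the class summed to 1758, 1789 and 816 CPM in control replicates 1 to 3 and 5303, 5688 and 5646 CPM with scramble ectosomes. ISG15, a ubiquitin-like modifier, stood at 33.9 and 31.1 CPM in control replicates 1 and 2, 8.83 CPM in control replicate 3 and 219, 238 and 251 CPM with scramble ectosomes. Control replicate 3 was the lowest library. ISG15 rose 9.55-fold (log2 fold change 3.26, SE 0.37, adjusted p = 1.7e-05, and 2.86 without control replicate 3). IFIT5, an RNA-binding effector, rose 11.8-fold (adjusted p = 1.16e-05), from 5.7, 6.07 and 0.994 CPM to between 49.3 and 53.9 CPM. ISG20, an exonuclease, rose 22.7-fold (adjusted p = 2.24e-07), from 1.28, 1.59 and 0.386 CPM to between 23.2 and 28.6 CPM. GBP5, a guanylate-binding protein, rose 16.5-fold (adjusted p = 5.22e-06), from 1.49, 2.02 and 0.11 CPM to between 19.5 and 21.7 CPM (25.5-fold without control replicate 2). IRF7, which amplifies the interferon response, rose 4.37-fold (adjusted p = 0.00225), from 61.3, 57.4 and 9.33 CPM to between 179 and 197 CPM. MX1, an antiviral GTPase, fell 2.08-fold (adjusted p = 0.00345), from 2.66, 2.45 and 1.77 CPM to between 0.767 and 1.37 CPM. All 6 were lowest among the controls in control replicate 3. GBP2 had 20.4, 19.6 and 2.76 CPM in control replicates 1, 2 and 3 and 6.36, 7.85 and 7.28 CPM in the scramble-ectosome libraries, and its lower level was called only without control replicate 3 (adjusted p = 0.095 with it and 4.08e-10 without).

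On both strands the ISRE letters were in 28 of 48 matched promoters of the class (58.3%), against 4.38% of all genes in the RefSeq table. Of the 28 genes 26 rose and 1 fell, and their median was 2.17 (log2 fold change). The whole class had 47 of 59 higher and 4 lower, with a median of 1.97. The 150 bases before the start of ISG15 (chr1:1013347-1013496 on the plus strand) are printed because they hold 2 overlapping matches, in capitals.
ISG15: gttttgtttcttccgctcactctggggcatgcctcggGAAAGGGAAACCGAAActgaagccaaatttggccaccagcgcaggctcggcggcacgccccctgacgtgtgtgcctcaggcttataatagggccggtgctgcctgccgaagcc

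**Figure D5:**
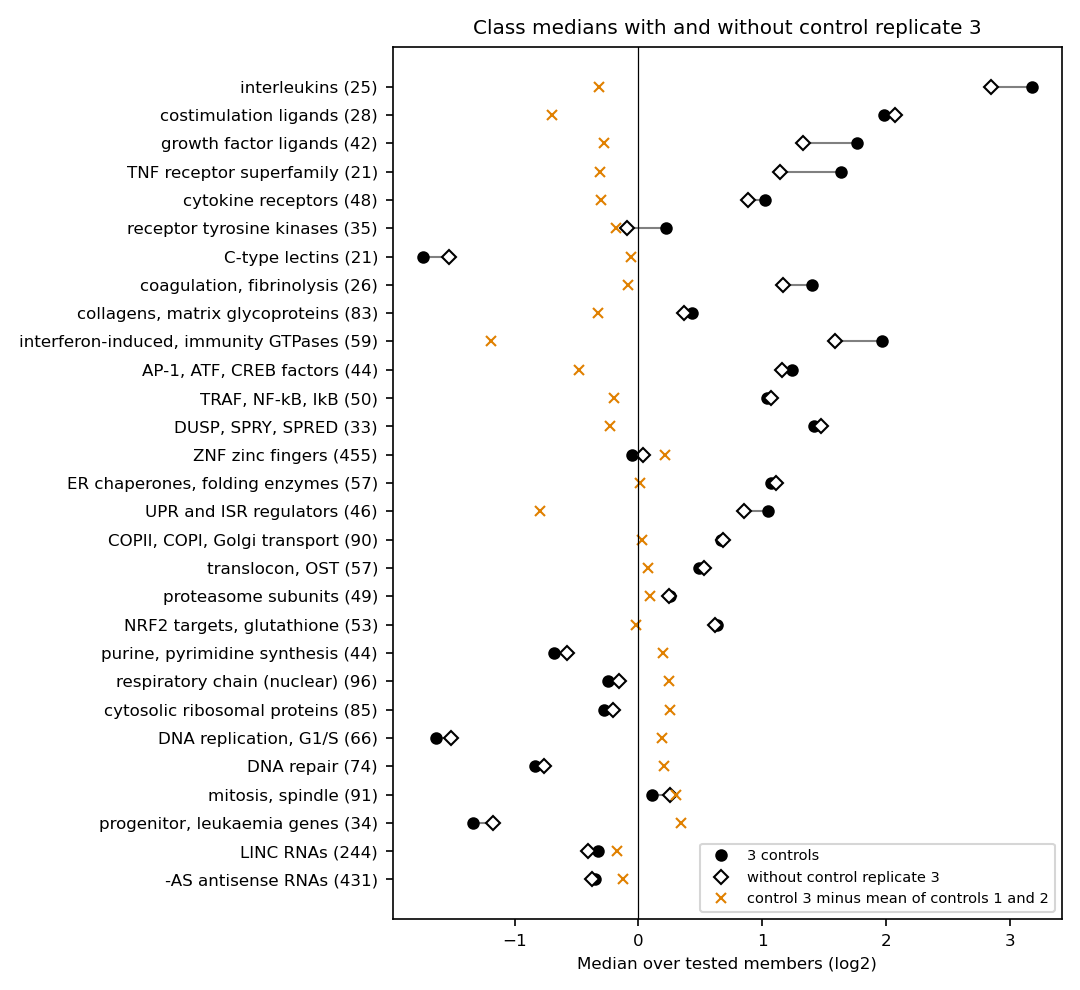
Median log2 fold change of each of 29 gene classes (rows, number tested in brackets) with all 3 controls (filled circles) and without control replicate 3 (open diamonds). Crosses give the median difference of control replicate 3 from the mean of the other controls. Interferon-induced genes have the lowest cross, at -1.19, and receptor tyrosine kinases and ZNF zinc fingers change the sign of their median.

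The plot of class medians with and without control replicate 3 shows where that library counted. Without it some rising classes had a median nearer to 0, at 1.59 in place of 1.97 for the interferon-induced genes and at 1.33 in place of 1.76 for growth factor ligands, whereas that of costimulation and checkpoint ligands was farther from 0, at 2.08 in place of 1.98. The medians of ER chaperones, Golgi transport and DNA replication moved by 0.04, 0.02 and 0.12. Summed progenitor and leukaemia genes were highest in control replicate 3, and the part of that in these results was not tested.

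Long non-coding RNAs were lower more often than higher. For LINC RNAs, of 244 members tested, 64 rose and 94 fell, 50 and 83 of them by at least 2-fold, with a median log2 fold change of -0.33 (-0.41 without control replicate 3). For antisense RNAs named with AS, 92 of 431 tested members rose and 172 fell (96 and 187 without control replicate 3), with a median log2 fold change of -0.35. LINC00622 rose from 6 reads over the controls, none in control replicate 3, to between 24.8 and 31.9 CPM (log2 fold change 8.11, adjusted p = 9.43e-09). MIR22HG, the host gene of miR-22, rose 22.2-fold (adjusted p = 7.63e-07), from 5.27, 5.12 and 1.21 CPM to between 83.2 and 90.7 CPM. MIR155HG, the host gene of the inflammatory miR-155, rose 2.7-fold (adjusted p = 8.67e-06), from 18.7, 19.8 and 12.5 CPM to between 44 and 47.5 CPM. LINC02169 stood at 64.9 and 60.1 CPM in control replicates 1 and 2, 60.2 CPM in control replicate 3 and 1.9, 2.11 and 1.63 CPM with scramble ectosomes. Its controls agreed closely. LINC02169 fell 32.8-fold (log2 fold change -5.04, SE 0.12, adjusted p = 4.9e-10, and -5.06 without control replicate 3). STARD4-AS1 fell 19.5-fold (adjusted p = 6.6e-07), from 25.1, 28.8 and 56.4 CPM to between 1.53 and 2.16 CPM, and its reads cannot be told apart from those of STARD4 and NREP, which it overlaps. For the nuclear RNA NEAT1, with 250.2, 332 and 315 CPM in control replicates 1, 2 and 3 and 336, 292 and 284 CPM in the scramble-ectosome libraries, no difference was called (adjusted p = 0.877).

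Few genes had a narrow interval around no change. The 95% interval of the log2 fold change lay within 0.2 of 0 for 72 genes (0.391% of those tested). The most abundant was SF1, a splicing factor, at 374, 353 and 385 CPM in control replicates 1, 2 and 3 and 366, 349.7 and 372 CPM in the scramble-ectosome libraries. The groups overlapped (log2 fold change -0.03, adjusted p = 0.718), although scaled by library totals alone a 1.18-fold fall of SF1 was called. CALM2, a calmodulin gene, had log2 fold change 0.02, although scaled by library totals alone a 1.14-fold fall was called. Without control replicate 3, 158 rises and 217 falls were no longer called, and 665 rises and 626 falls were added. Among abundant genes EEF1A1, the elongation factor, was gained as a rise (adjusted p = 0.396 with that library and 3.06e-05 without it), as was EEF2 (adjusted p = 0.0717 and 0.0226), which also passed without control replicate 1.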

How the data were processed

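RNA of THP-1 cells was extracted with Trizol and made into NEBNext Ultra libraries for Illumina sequencing, per the labels' protocols. The authors deposited a table of raw counts per gene symbol in 9 libraries. The submitters' processing notes name HISAT2 2.0.5, featureCounts 1.5.0-p3 and GRCh38/hg38. Annotation, strandedness and filters of the counting are not stated in the sources used here, so overlapping genes on opposite strands may share reads. Of its rows, 355 shared 60 names, 24 rows had names turned into dates, and no row total was under 4. Names of 99.9% of rows were in GENCODE release 29, from which gene types and GRCh38 coordinates were taken.

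Tests used edgeR 4.0.16 in R 4.3.3 (filterByExpr by group, TMM scaling, quasi-likelihood F test, two-sided, Benjamini-Hochberg over all 18437 genes tested), with the 9 libraries in 1 fit by group and 6 residual degrees of freedom. These genes held at least 99.8% of the counts of each library. The common biological coefficient of variation was 13.3%, which with the number of libraries sets the precision. Fold changes had a prior count of 0.125, and an SE is the log2 fold change over the square root of F. CPM are TMM-scaled. The separation of the closest libraries was counted on CPM plus 0.5. The groups were taken from the labels, and the 3 libraries of cells given PKM2-knockdown ectosomes were not compared here. On counts simulated for this comparison over 18437 genes, 20 of 50 genes changed 1.5-fold, 44 of 50 changed 2-fold and 50 of 50 changed 4-fold were recovered, with 8 false calls. Few genes were changed there, as many upward as downward, and control replicate 3 was not set apart. In the data 67.8% of genes were called, and recovery, false calls and scaling were not tested under such conditions. Python 3.11.15, pandas 2.3.3 and matplotlib 3.10.9 made the tables and figures.

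The comparison, the gene classes and the genes named were chosen with earlier results of these data known. The text names genes from a rule. It takes, in each class, up to 3 called members with the largest changes in the main direction and up to 2 in the other, with a mean of at least 5 CPM and groups that do not overlap. It adds the genes that gained or lost most CPM, the protein-coding genes next in size of fold, abundant genes whose call changed without control replicate 3, and abundant genes with a narrow interval around 0. Outside this rule, and chosen after their values were seen, are ABCB1, ALPK2, ASNS, B2M, CCNB1, CD274, CDK1, CRELD2, CSF2, DDIT3, DUSP2, FOS, GBP2, GCLM, HBEGF, IL2RA, IL36G, ISG15, JUN, JUNB, LIG1, MCM3, MT1X, MT2A, MX1, NEAT1, NFKBIA, PCNA, PDIA4, PDIA6, PLK1, RHEX, RSPO3, S100A9, SEC24D, SEL1L, SERPINB7, TGFB1, TNFAIP3, TOP2A, TRIB3 and XBP1. Alternatives were DESeq2 1.42.0, scaling by library totals alone, no filter on low counts, only the 6 libraries in the fit, the replicate number as a block, a prior count of 2, a pseudocount of 0.1 CPM and leaving out each library. Some results are not reported here.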

Additional observations from a re-analysis of the deposited data

How the results depend on the processing

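Every alternative left the counts of called genes within 1.5 times those reported. They ran from 5129 (library totals alone) to 6884 (without control replicate 3) for higher and from 5469 to 7630 for lower genes, and from 2743 to 3987 and 3248 to 4250 at 2-fold. Leaving out 1 library at a time gave 5885 to 6884 higher and 5469 to 6524 lower genes, and DESeq2 gave 6253 and 5967. Closest libraries at least 2-fold apart numbered 3449 with library totals alone, 3867 without control replicate 3 and 4085 with a pseudocount of 0.1 CPM. With the replicate number as a block, 6266 genes were higher and 5913 lower, 3350 and 3333 of them by 2-fold, and MT2A passed the threshold (5.27-fold). The deviations of same-numbered libraries correlated at -0.03, -0.02 and 0.02, so the numbers did not pair the libraries. CALM2, not called in the main fit, was called as a 1.14-fold fall (log2 fold change -0.18) under library totals alone. Of 100 class counts, 12 moved by over 1.5 times under that scaling, as given beside each class. A prior count of 2 moved the fold of 11 named genes by over 1.5 times, all of them with few control or few treated reads. Genes under about 1 CPM in the controls carry folds that rest on few reads.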
